A study of Mus musculus with 12 samples.

Results

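The genes described here are 9 genes of thymocytes and of T cells that have recently left the thymus: Dntt, Rag1, Rag2, Cd8a, Cd8b1, Ccr9, Cd24a, Sox4 and Tox. They were taken by name, with earlier results of these data known. Of the 9 genes, 8 are among the 17523 genes of the deposited table, in which each gene is identified by its Entrez number. Rag2 was not analysed here. Of the 8 genes, 7 passed the filter on low values, and Rag1 did not.

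T cells mature in the thymus, where the RAG recombinase cuts the T cell receptor genes and terminal deoxynucleotidyl transferase, the product of Dntt, adds untemplated bases at the joins. Thymocytes pass through a stage with both CD4 and CD8 on the surface before they keep one of them, and most silence the other. Cells that have just reached the periphery, called recent thymic emigrants, still carry traces of this history, such as CD24 on the surface, and lose them as they mature.

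The data are RNA sequencing of 12 samples of CD4+ T cells, which had been sorted by flow cytometry from the spleens of C57BL/6 Gr/fr mice that had not been immunized. In Gr/fr mice, the GM-CSF gene Csf2 also carries Cre recombinase and BFP, and Cre switches on eYFP at Rosa26 for good, so YFP marks cells that make or once made GM-CSF, and their descendants. All 4 groups carried these alleles. The groups were YFP- naive, YFP+ naive, YFP- effector memory (TEM) and YFP+ TEM cells, with naive cells sorted as CD62L+CD44- and TEM cells as CD62L-CD44hi, and each held 3 libraries. The labels give no age for these samples and name no gate that removes CD25+ cells or cells of other lineages. YFP records a past event, so a YFP+ cell need not make GM-CSF at the time of the sort.

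The libraries held from 40974124 to 57822269 reads on genes. Values are normalized counts, meaning reads scaled by a size factor for each library, and errors are SD over 3 libraries. Cd44, the sorting marker, had 2831 ± 382 normalized counts in YFP- naive and 22014 ± 363 in YFP- TEM cells. Cd4 had at least 36078 normalized counts in each library. In bulk samples, a lower level can come from fewer cells that express a gene or from less RNA per cell, and these cannot be told apart. The YFP+ naive replicate 2 library stood apart from the other naive libraries in markers of other cells. Its 4 erythroid markers summed to 2537 normalized counts against 29.95 to 596 in the other 5 naive libraries, and its 5 measured myeloid markers to 2945 against 268 to 717. Its 8 conventional dendritic cell markers summed to 9618 against 2737 to 4668, and its 7 B cell markers to 2035 against 566 to 1435.

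Promoter windows are shown for Dntt, Ccr9 and Cd8a, since Dntt, Ccr9 and the CD8 genes carry the differences described here. Each window runs from 250 bases before to 50 bases after the start of the gene, 5′ to 3′ on the coding strand, from RefSeq on GRCm38.p6. Windows were found for 6 of the 9 genes and not for Cd8b1, Cd24a and Tox. Capitals mark matches to 7 short motifs, with both strands searched. For RUNX factors the letters were TGTGGT. For E proteins they were CAGCTG, and in another search CAGGTG. For TCF-1 and LEF-1 they were CTTTGA, for GATA factors AGATAA, for the factor Ikaros TGGGAA, and for ETS factors CGGAAG. No match overlapped another in these windows. The windows lie at chr19:41029025-41029324 for Dntt, chr9:123766961-123767260 for Ccr9 and chr6:71373177-71373476 for Cd8a, all on the plus strand.
Dntt: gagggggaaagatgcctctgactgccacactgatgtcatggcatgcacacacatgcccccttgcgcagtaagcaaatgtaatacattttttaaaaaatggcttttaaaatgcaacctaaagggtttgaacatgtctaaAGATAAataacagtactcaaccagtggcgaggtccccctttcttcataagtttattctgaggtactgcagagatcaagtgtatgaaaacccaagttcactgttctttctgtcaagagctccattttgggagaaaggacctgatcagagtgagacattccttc
Ccr9: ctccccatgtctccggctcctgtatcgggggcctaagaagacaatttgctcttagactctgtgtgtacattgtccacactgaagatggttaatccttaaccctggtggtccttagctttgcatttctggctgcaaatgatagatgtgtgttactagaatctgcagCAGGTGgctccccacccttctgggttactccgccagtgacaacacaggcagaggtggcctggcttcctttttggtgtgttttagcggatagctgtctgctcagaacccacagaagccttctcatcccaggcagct
Cd8a: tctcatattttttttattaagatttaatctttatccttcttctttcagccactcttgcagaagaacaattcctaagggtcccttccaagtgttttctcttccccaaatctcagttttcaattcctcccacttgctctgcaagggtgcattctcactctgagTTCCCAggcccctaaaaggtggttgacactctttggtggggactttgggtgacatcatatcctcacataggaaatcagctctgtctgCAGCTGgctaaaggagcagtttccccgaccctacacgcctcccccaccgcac
The Dntt window held a single match, to the GATA motif from 112 to 107 bases before the start, and 11.2% of the 32851 windows in the table held that motif. The Ccr9 window held a single match, CAGGTG from 85 to 80 bases before the start, which 20.2% of windows held. In the Cd8a window, CAGCTG spanned the start, as a motif found in 16.3% of windows, and TTCCCA, the reverse of the Ikaros motif found in 25.6%, lay 89 to 84 bases before it. No motif was found in all 3 windows. These matches are letters only and say nothing of whether a factor binds there.

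The central comparison asks how naive cells with a history of GM-CSF expression differ in these genes from naive cells without it. Dntt, Cd8b1 and Ccr9 had lower levels in YFP+ naive cells in each of the 3 replicate pairs, at 0.356, 0.430 and 0.405 times the mean of YFP- cells. Cd8a had lower values with overlap, and the groups also overlapped for Cd24a, Sox4 and Tox. None of the 7 tested genes was called. A call required a limma p value, adjusted by the Benjamini-Hochberg method over all 15587 tested genes, of at most 0.05, in a fit with the replicate number as a block. In this comparison 0.0385% of tested genes were called, which is 6 genes. Before adjustment, 3 of the 7 had a p of at most 0.05, all lower in YFP+ cells. By that measure 1.64% of all tested genes were lower, and 630 of the 15587 were higher. The median log2 fold change of the 7 genes was -0.60, against 0.01 over all tested genes. Since the genes were chosen with earlier results of these data known, such shares and ranks describe them and do not test them.

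**Figure D1:**
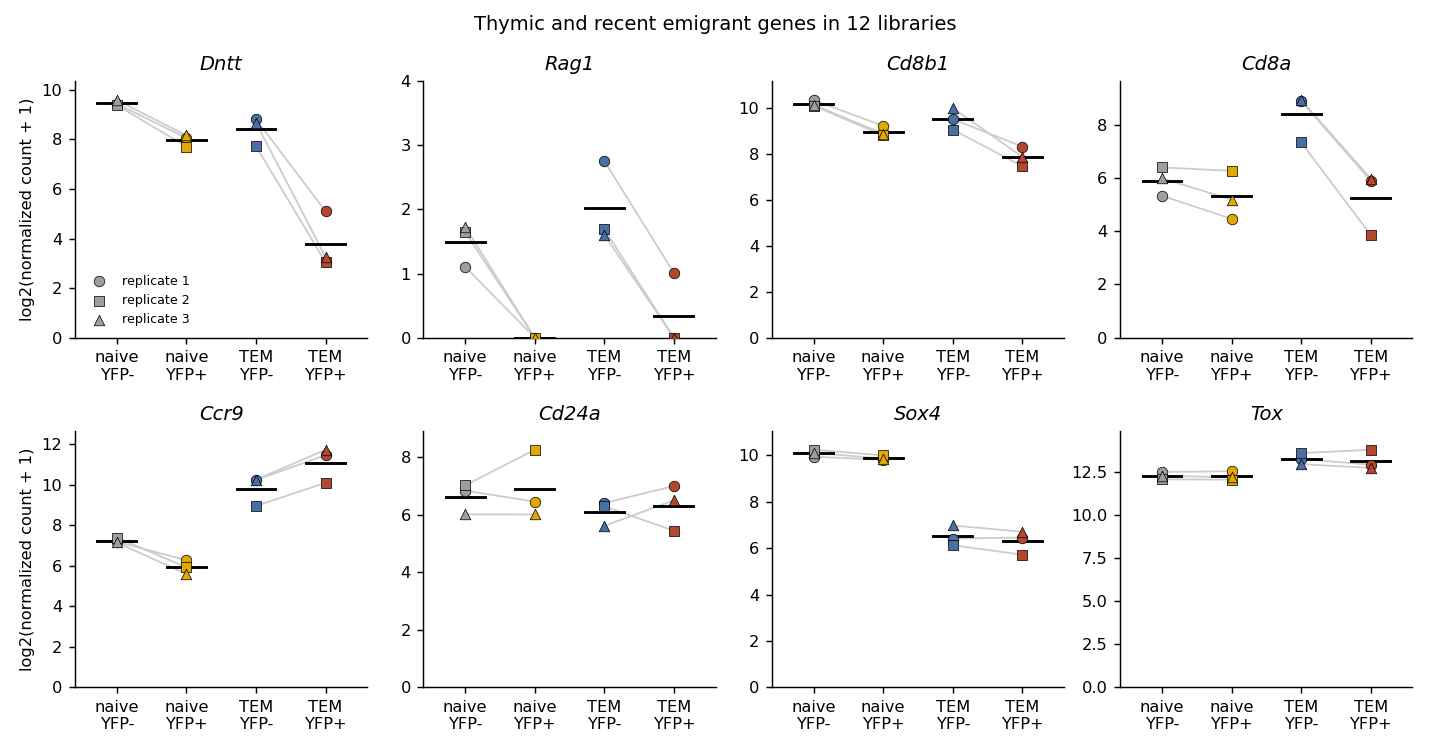
Level of each of the 8 measured genes in the 12 libraries, as log2(normalized count + 1) on the vertical axis, with the 4 groups along the horizontal axis. Symbols give the replicate number, grey lines join YFP- and YFP+ libraries of the same number, and black bars are group means. In naive cells, the 3 YFP+ libraries lay below the 3 YFP- libraries for Dntt, Cd8b1, Ccr9 and Rag1.

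Dntt (Entrez 21673, chromosome 19 from 41029275 to 41059525, GRCm38.p6) encodes the polymerase that adds bases without a template during receptor assembly. In YFP- naive cells it had 695, 669 and 771 normalized counts in replicates 1 to 3, and in YFP+ naive cells 266, 209 and 286. The groups did not overlap, and the highest YFP+ library lay well under the lowest YFP- library. The log2 differences within the pairs were -1.38, -1.68 and -1.43. The fitted log2 fold change was -1.50 (SE 0.37, 95% interval -2.31 to -0.68) with an unadjusted p of 0.0020 and an adjusted p of 0.380 in limma. An exact permutation test cannot go below 0.10 with 3 libraries a group, or below 0.25 with 3 pairs, so the p values given here depend on the spread that limma pools over genes.

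Rag1 (Entrez 19373, chromosome 2 from 101638252 to 101649532), which encodes a subunit of the recombinase, lay at the floor of the measurement. It had 1, 2 and 2 reads in YFP- naive cells and 0 reads in each YFP+ naive library, and a count of 0 allows up to 3 reads. With 18 reads over all 12 libraries it was not tested, and no fold is given. The YFP- naive libraries in which Rag1 had at most 2 reads thus held 603 to 669 reads of Dntt.

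Cd8b1 (Entrez 12526, chromosome 6 from 71322788 to 71337492) encodes the beta chain of the CD8 co-receptor. It had 1282, 1083 and 1106 normalized counts in YFP- naive cells and 587, 441 and 465 in YFP+ naive cells. The groups did not overlap, and the within-pair log2 differences of -1.12, -1.30 and -1.25 had the smallest spread among Dntt, Ccr9 and the CD8 genes (SD 0.09). The spread of Sox4 and Tox was smaller (SD 0.07 for each). The log2 fold change was -1.22 (SE 0.18, 95% interval -1.62 to -0.82, unadjusted p = 3.73e-05, adjusted p = 0.083, limma). By p it was rank 7 of all tested genes. The call depended on the tool: DESeq2 with the same block gave an adjusted p of 2.3e-06 and edgeR gave 0.128.

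Cd8a (Entrez 12525, chromosome 6 from 71373427 to 71379171) encodes the alpha chain, which is needed for CD8 at the surface. Its naive levels were low, with 39.2, 82.8 and 62.2 normalized counts in YFP- cells and 21.0, 75.8 and 35.3 in YFP+ cells. Each YFP+ library lay under its pair, yet the groups overlapped. The log2 fold change was -0.60 (95% interval -2.05 to 0.85, adjusted p = 1, limma), an interval that holds both the difference of Cd8b1 and no difference. Without YFP+ naive replicate 2, the library with high markers of other cells, it was -1.40 (adjusted p = 0.887, limma). Per kb of exon, Cd8b1 had 52.0 ± 25.2 times the level of Cd8a in YFP- naive cells and 38.4 ± 27.6 times in YFP+ naive cells, so on this scale the CD8 transcript of these sorted CD4+ cells was mostly of the beta chain.

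Ccr9 (Entrez 12769, chromosome 9 from 123767211 to 123783457, where it overlaps Gm17021) encodes the receptor for the chemokine CCL25, which is made in thymus and small intestine. It had 145, 168 and 142 normalized counts in YFP- naive cells and 76.7, 60.0 and 47.4 in YFP+ naive cells. The groups did not overlap. The log2 fold change was -1.31 (SE 0.35, 95% interval -2.09 to -0.54, unadjusted p = 0.0034, adjusted p = 0.454, limma). The strand setting of the counting is not given in the sources used here, so reads of Gm17021 could be part of these values.

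The remaining genes showed no difference of this size in naive cells. Cd24a (Entrez 12484, chromosome 10 from 43579169 to 43584265), which encodes a small surface glycoprotein high on thymocytes and on many other immature blood cells, had 113, 128 and 63.4 normalized counts in YFP- cells and 86.6, 304 and 63.2 in YFP+ cells. The value of 304 came from YFP+ replicate 2. The log2 fold change was 0.29 (95% interval -0.88 to 1.45, adjusted p = 1, limma), and -0.44 without that library (adjusted p = 0.989, limma). Cd24a therefore took the sign of that library.

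Sox4 (Entrez 20677, chromosome 13 from 28948919 to 28953699, overlapping Gm46405) encodes a transcription factor of lymphocyte progenitors. It had 984, 1212 and 1108 normalized counts in YFP- naive cells and 898, 1024 and 928 in YFP+ naive cells. Each pair was lower in YFP+ cells, by 0.13 to 0.26 on the log2 scale, and the fitted value was -0.21 (95% interval -0.72 to 0.30, adjusted p = 1, limma). Tox (Entrez 252838, chromosome 4 from 6686353 to 6991557, overlapping Gm11802) encodes a nuclear factor needed for CD4 lineage T cells to form in the thymus. It had 5900.5, 4387 and 5071 normalized counts in YFP- naive cells and 6071, 4329 and 4756 in YFP+ naive cells. The log2 fold change was -0.02 (95% interval -0.53 to 0.48, adjusted p = 1, limma), and the pairs moved in both directions.

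Ranked by log2 fold change among the 11054 genes whose mean over naive libraries was 50 or more, Dntt, Ccr9 and Cd8b1 held ranks 2, 4 and 5 from the lowest, with Gm4951 at -1.59 in rank 1 and the prohormone convertase gene Pcsk1 at -1.33 in rank 3. Cd8a was at rank 51. The YFP+ library was at most 0.5 times its YFP- pair in all 3 pairs for 5 of these genes (0.0452%), and Dntt and Cd8b1 were among the 5. The others were Pcsk1, Gm4951 and Il2ra, named here after their values were seen. Among the 7 tested members, all 3 YFP+ libraries lay below all 3 YFP- libraries for Dntt, Cd8b1 and Ccr9, against 2.21% of all tested genes. Rag1 had the same order, but it was at the floor and not tested, so it is not set against that share.

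The direction was the same in every alternative setting, while the call was not. Over 29 settings, the log2 fold change in naive cells ranged from -1.81 to -1.26 for Dntt, from -1.32 to -1.09 for Cd8b1 and from -1.65 to -0.93 for Ccr9. DESeq2 with the replicate block called 3 of the 7 genes, all lower, with an adjusted p of 0.0026 for Dntt and 0.0288 for Ccr9. edgeR with the block called 0, with an unadjusted p of 0.000536 for Dntt, 5.75e-05 for Cd8b1 and 0.0067 for Ccr9. A limma fit with a separate replicate block in each cell type called Cd8b1 (adjusted p = 0.0186) and Ccr9 (adjusted p = 0.0149), with 0.0718 for Dntt. Without the replicate block, limma called 0 of the 7 and gave an adjusted p of 0.559 for Cd8b1 and 1 for Dntt and Ccr9. Without YFP+ naive replicate 2, the limma fit with the block gave log2 fold changes of -1.62 for Dntt, -1.30 for Cd8b1 and -1.59 for Ccr9, none of them called.

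**Figure D2:**
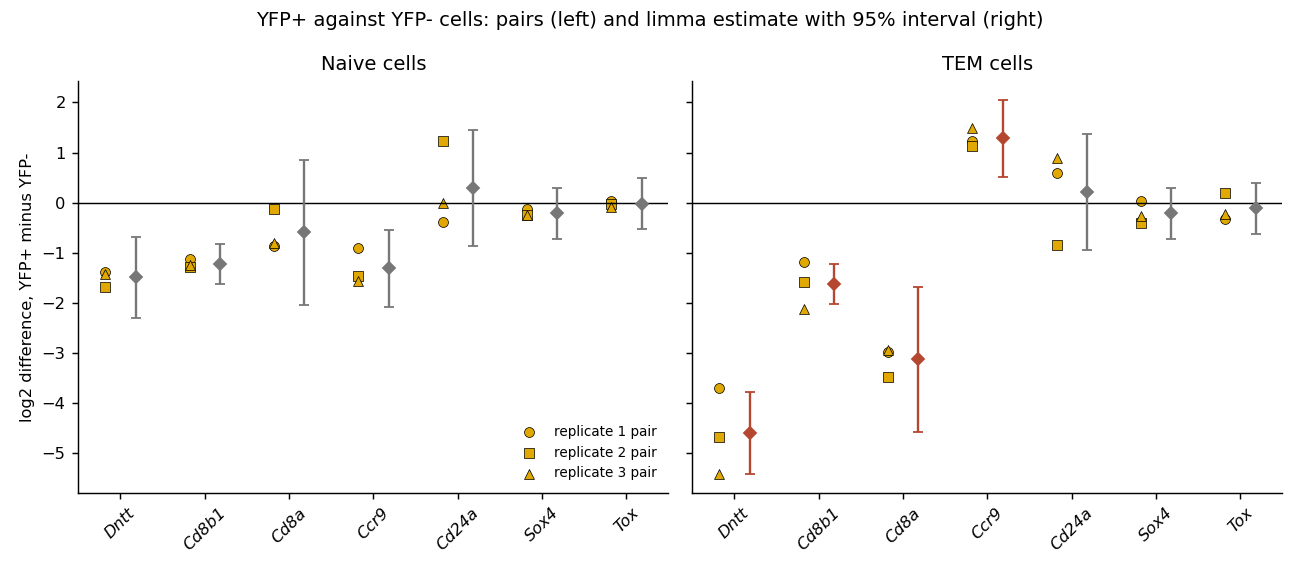
Log2 difference of YFP+ minus YFP- cells for the 7 tested genes, in naive cells (left panel) and TEM cells (right panel). Yellow symbols are the 3 replicate pairs, diamonds the limma estimate with its 95% interval, red where the adjusted p was 0.05 or less. In naive cells the intervals of Dntt, Cd8b1 and Ccr9 lay below 0 and none was called, and in TEM cells Ccr9 took the opposite sign.

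Markers of other cells that could carry these genes are given beside the naive result. Plasmacytoid dendritic cells are known to express Dntt, Cd8a and Ccr9 in the mouse. Siglech, their defining marker, had 0, 0 and 1.15 normalized counts in YFP- naive cells and 0, 16.7 and 0 in YFP+ naive cells. The sum of 11 markers of these cells, most of it Bst2, ranged from 2984 to 3215 in YFP- and from 2743 to 3882 in YFP+ naive cells. Of these 11 markers 0 were called in limma, with 1 higher and 1 lower at p of at most 0.05 before adjustment. The lower one was Runx2, which had 89.9 ± 21.5 normalized counts in YFP- and 40.4 ± 13.9 in YFP+ naive cells without overlap (log2 fold change -1.16, unadjusted p = 0.00032, adjusted p = 0.184, limma). The higher one was Bcl11a, with 29.7 ± 16.2 and 66.3 ± 41.0 (log2 fold change 1.13, adjusted p = 0.877, limma). The part of plasmacytoid cells in the naive levels of Dntt, Cd8b1 and Ccr9 was not tested. Summed over 13 genes, markers of CD8 T cells ranged from 11254 to 13526 in YFP- and from 13907 to 17624 in YFP+ naive cells. Most of this sum was Runx3 and Dapl1. Of the 13, 0 were called in limma, with 3 higher and 1 lower at p of at most 0.05 before adjustment. Dapl1 and Runx3 had log2 fold changes of 0.55 (adjusted p = 0.172, limma) and 0.31 (adjusted p = 0.302, limma). Itgae, the lower one, had -0.83 with every YFP+ library below every YFP- library (adjusted p = 0.624, limma). Nkg7, a cytotoxic granule gene, had 24.5 and 25.0 normalized counts on average. The erythroid and myeloid lists had median log2 fold changes of 2.15 and 1.05 in naive cells, with YFP+ replicate 2 the highest library. Of their genes 0 were called, while 3 of the 4 erythroid genes were higher at 0.05 before adjustment. Of all 15587 tested genes, 630 were higher and 255 lower by that measure in naive cells.

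Markers of regulatory T cells moved with the naive result. Foxp3, the factor of regulatory T cells, was chosen here after its values were seen and had 2352, 1829 and 2911 normalized counts in YFP- naive cells and 1257, 1087 and 1309 in YFP+ naive cells. It fell by 0.94 on the log2 scale (adjusted p = 0.0126, limma). Il2ra, which encodes CD25, fell by 1.06 (adjusted p = 0.0055, limma). In TEM cells Foxp3 had 19208, 11161 and 17909 normalized counts in YFP- and 9695, 6198 and 10484 in YFP+ cells, and it fell by 0.87 on the log2 scale (adjusted p = 0.00052, limma). Il2ra rose there by 0.62 (adjusted p = 0.0029, limma), higher in all 3 pairs though the groups overlapped. The part of regulatory T cells in the levels of Dntt, the CD8 chains and Ccr9 was not tested in either cell type.

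The other genes of the thymic programme did not share the lower level. Of 11 tested genes of V(D)J joining other than the members, 0 were called in naive cells, 0 passed 0.05 before adjustment, and the median log2 fold change was -0.00015. Prkdc and Poll, a kinase and a polymerase of end joining, had the smallest p there, with log2 fold changes of 0.12 (adjusted p = 0.917, limma) and 0.13 (adjusted p = 0.984, limma). Among 20 tested transcription factors and other genes of the thymocyte programme, 0 were called and the median was -0.01. Before adjustment, 3 of these 20 were lower with a p of at most 0.05 and 0 were higher. Among them were Plxnd1, a semaphorin receptor of thymocytes (log2 fold change -0.44), and Myb, a transcription factor of progenitors and thymocytes (-0.38). Tcf7, Bcl11b and Satb1, factors that set T cell identity, had log2 fold changes of -0.03, 0.02 and -0.02.

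Genes that mark maturation after the thymus had a small median difference between the naive groups, though Cd5 and Il7r were higher in YFP+ cells without overlap. Of 12 tested, 0 were called in limma, 1 was higher at 0.05 before adjustment, and the median was -0.02. Cd5, a negative regulator of receptor signalling, had the smallest p, with 17427, 15351 and 20499 normalized counts in YFP- cells against 25053, 20998 and 28609 in YFP+ cells. The difference of 0.49 on the log2 scale was not called (unadjusted p = 0.00032, adjusted p = 0.184, limma). Il7r, the IL-7 receptor chain of naive and memory T cells, had 0.20 (adjusted p = 0.957, limma). Among relatives and binding partners of the members, 0 of 7 tested were called in limma, and 1 was lower at 0.05 before adjustment. Tox2 and Tox3 had log2 fold changes of 0.35 and -1.30, the latter at 7.62 and 2.20 normalized counts in YFP- and YFP+ naive cells.

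**Figure D3:**
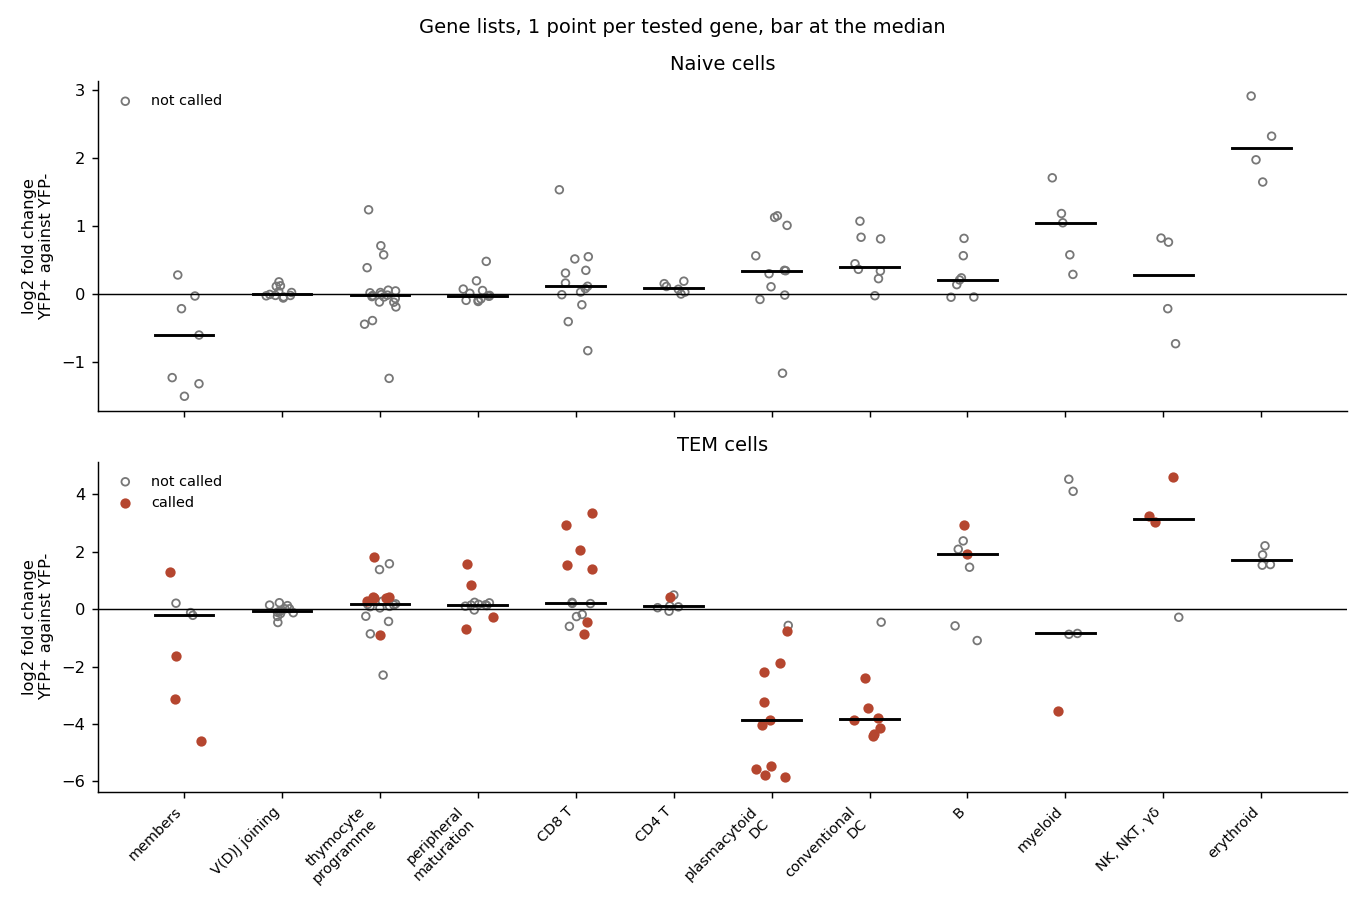
Log2 fold change of YFP+ against YFP- cells on the vertical axis for every tested gene of 12 lists, in naive cells (top) and TEM cells (bottom). Red points were called in limma, open points were not, and bars are medians. In naive cells no gene of these lists was called and the median of the members was -0.60, and in TEM cells 10 of 11 plasmacytoid and 7 of 8 conventional dendritic cell (DC) markers were called lower.

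In TEM cells the same contrast of YFP+ against YFP- cells gave larger differences, and 4 of the 7 tested genes were called, where 12% of all tested genes were called. Dntt, Cd8a and Cd8b1 fell, and Ccr9 rose. Dntt had 449, 211 and 408 normalized counts in YFP- TEM cells and 33.4, 7.25 and 8.55 in YFP+ TEM cells, without overlap. The fitted difference was -4.61 on the log2 scale (SE 0.37, adjusted p = 5.9e-05, limma), and it was called in all 28 alternatives that gave a value.

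Both CD8 chains fell in YFP+ TEM cells. Cd8b1 had 721, 525 and 1008 normalized counts in YFP- and 314, 174 and 231 in YFP+ TEM cells, with a fitted log2 difference of -1.63 (SE 0.18, adjusted p = 0.00034 in limma), and was also called in all 28. Cd8a had 470.0, 160.1 and 483 in YFP- and 58.6, 13.5 and 61.8 in YFP+ TEM cells, with a fitted log2 difference of -3.13 (SE 0.65, adjusted p = 0.010 in limma). Its call was lost in 4 fits, without YFP- TEM replicate 1 (adjusted p = 0.0521), YFP- TEM replicate 3 (0.0605), replicate 1 of all groups (0.0757) or replicate 3 of all groups (0.155). All 3 YFP+ libraries lay below all 3 YFP- libraries for Dntt, Cd8b1 and Cd8a, as for 14.3% of all tested genes, and also for Rag1, which had 7, 3 and 2 reads in YFP- and 1, 0 and 0 in YFP+ TEM cells.

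Ccr9 moved the other way. It had 1209, 497 and 1218 normalized counts in YFP- TEM cells and 2826, 1096 and 3405 in YFP+ TEM cells. The groups overlapped because replicate 2 was lowest in both, yet the YFP+ library was the higher in all 3 pairs, by 1.22, 1.14 and 1.48 on the log2 scale. The fitted log2 difference was 1.28 (SE 0.35, adjusted p = 0.0373 in limma). The call is weak, since it was lost in 11 of 28 alternatives, among them the fit without the replicate block (adjusted p = 0.0956) and each fit without YFP- TEM replicate 1 (0.0724), 2 (0.11) or 3 (0.0712), YFP+ TEM replicate 1 (0.136) or 3 (0.195), YFP- naive replicate 3 (0.0527) or YFP+ naive replicate 1 (0.053). Cd24a had 83.7, 77.1 and 47.9 normalized counts in YFP- and 126, 42.5 and 89.4 in YFP+ TEM cells. Cd24a, Sox4 and Tox had log2 fold changes of 0.21, -0.21 and -0.12 with 95% intervals of -0.95 to 1.37, -0.72 to 0.30 and -0.63 to 0.39, and none was called.

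The lower levels in YFP+ TEM cells came with a difference in dendritic cell markers. The 11 plasmacytoid markers summed to 24710, 14777 and 26093 normalized counts in YFP- and to 6735, 6027 and 6667 in YFP+ TEM cells, and 10 of the 11 fell. Siglech had 3367, 1412 and 3263 in YFP- and 118, 26.9 and 55.1 in YFP+ TEM cells, and Smim5, Tcf4, Bst2 and Klk1 fell, with log2 fold changes of -5.78, -2.20, -0.75 and -5.57. Among YFP- TEM libraries, replicate 2 was lowest in these markers and also in Dntt, Cd8a, Cd8b1, Ccr9, Foxp3 and Il2ra. Among YFP+ TEM libraries, replicate 2 was likewise lowest in the marker sum and in each of these 6 genes. Tox was highest in replicate 2 of both TEM groups. These orders rest on 3 libraries a group, and their cause was not tested. The 8 conventional dendritic cell markers summed to 139110 or more in YFP- and to 23598 or less in YFP+ TEM cells, with 7 of 8 lower, among them Flt3, H2-Aa, H2-Ab1 and Cd74. The part of dendritic cells in the levels of Dntt and the CD8 chains in TEM cells was not tested.

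**Figure D4:**
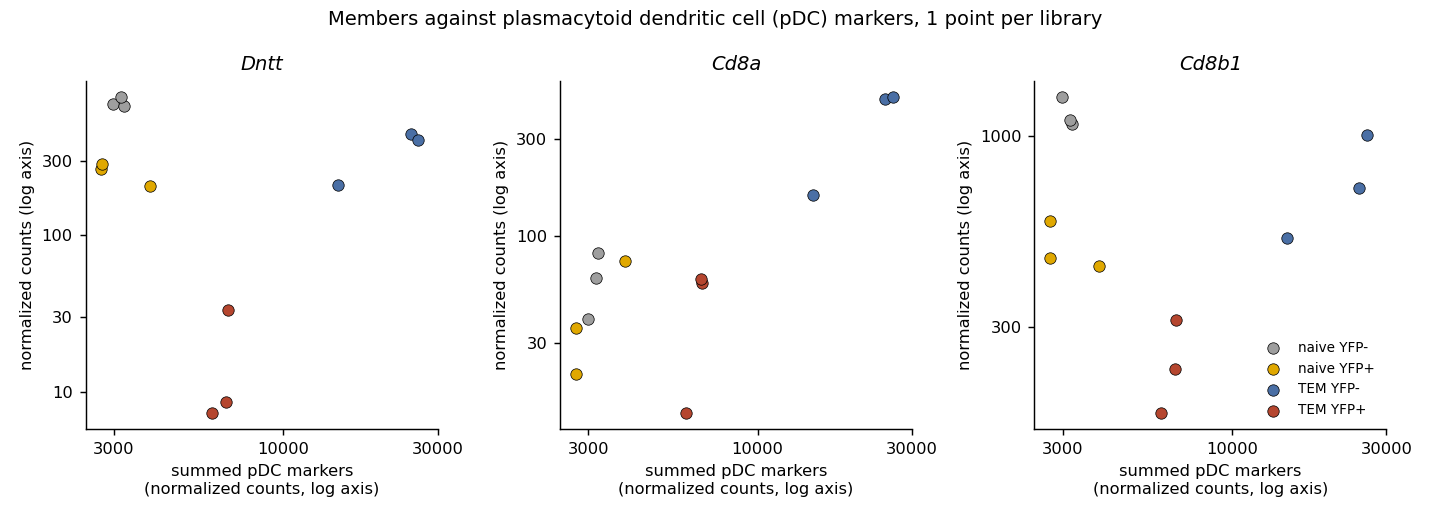
Normalized counts of Dntt, Cd8a and Cd8b1 (vertical, log axis) against the summed normalized counts of 11 plasmacytoid dendritic cell markers (horizontal, log axis), with 1 point per library coloured by group. YFP- TEM libraries had the highest marker sums, from 14777 to 26093. The naive groups overlapped in the marker sum, most of which was Bst2 there, but not in Dntt or Cd8b1. The part of plasmacytoid cells in the naive levels was not tested.

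Markers of other cells moved in both directions. Of 13 CD8 T cell markers, 5 rose and 2 fell in YFP+ TEM cells, with Ctsw, Klrd1, Xcl1 and Klrk1 higher by 2.07, 1.41, 2.94 and 3.34 on the log2 scale and Eomes (-0.43) and Ly6c2 (-0.85) lower. Of 4 tested markers of NK, NKT and gamma delta T cells, 3 rose, namely Klrb1c (3.03), Ncr1 (4.62) and Zbtb16 (3.25), the last of which encodes the factor of innate-like T cells. Of 7 B cell markers 2 rose and 0 fell, namely Ebf1 (2.94) and Cd79a (1.91), while 5 were higher and 1 lower at p of at most 0.05 before adjustment. Yet the 7 summed to 2522, 2251 and 3260 normalized counts in YFP- and to 1751, 1437 and 1986 in YFP+ TEM cells, and Cd22, the most abundant, had a log2 fold change of -1.09 without overlap (adjusted p = 0.0904, limma). Of 5 myeloid markers 1 fell, Itgam (-3.55), and 0 rose, while S100a8 and S100a9 had log2 fold changes of 4.11 (adjusted p = 0.0577, limma) and 4.53 (adjusted p = 0.0574, limma). The part of these cells in the TEM levels of the members was not tested. Of the 4 erythroid markers, 0 were called in limma, and 1 passed 0.05 before adjustment. Of all 15587 tested genes, 1768 were higher and 2010 lower by that measure in TEM cells. Cd4 and Zbtb7b, which mark the CD4 lineage, had log2 fold changes of -0.07 and 0.08, and Cd40lg rose by 0.41. In the thymocyte programme 6 of 20 rose and 1 fell, with Satb1 (1.82), Lef1 (0.42) and Tcf12 (0.43) higher and Plxnd1 (-0.89) lower. In the maturation list Il7r (0.84) and Ly6c1 (1.56) rose, and Ccr7 (-0.26), a chemokine receptor that guides naive cells to lymph nodes, fell. Of the V(D)J joining genes 0 of 11 were called in limma, and 1 passed 0.05 before adjustment. Of the relatives and binding partners of the members, Sox12, Siglecg and Tox3 fell, with log2 fold changes of -1.29, -4.16 and -2.54.

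The YFP difference itself changed between naive and TEM cells for 2 of the 7 genes, Dntt and Ccr9, where 5.71% of all tested genes were called in this test of the interaction. For Dntt, the log2 difference in TEM cells minus that in naive cells was -3.11 (SE 0.52, adjusted p = 0.0070, limma), and both were negative. For Ccr9 it was 2.59 (SE 0.49, adjusted p = 0.0128, limma), with all 3 pairs lower in naive and all 3 higher in TEM cells. Without replicate 3, neither was called (adjusted p = 0.171 and 0.139), and Ccr9 was not called without replicate 1 (0.151) or without a variance trend (0.065). Cd8a had -2.54 (adjusted p = 0.169, limma) and Cd8b1 -0.41 with a 95% interval of -0.98 to 0.15 (adjusted p = 0.494, limma), so neither chain was called in this fit. Cd8a was called as well in 3 alternatives, with a replicate block within each cell type (adjusted p = 0.0028, limma), without replicate 2 (0.0193, limma) and in DESeq2 with the block (adjusted p = 0.048).

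Between TEM and naive cells, averaged over YFP status, 6 of the 7 genes were called, where 67.3% of all tested genes were. Ccr9, Tox and Cd8a rose by 3.87, 0.94 and 1.21 on the log2 scale, and Sox4, Dntt and Cd8b1 fell, with values of -3.59, -2.62 and -0.87. The call of Cd8a (adjusted p = 0.0382, limma) was lost in 12 of 27 alternatives. They were quantile normalization (0.174 on the log2 scale, adjusted p = 0.716), no variance trend (adjusted p = 0.0811) and each fit without a library of replicate 1 or 3 or without all 4 of either (adjusted p up to 0.407). YFP+ TEM cells had 44.6 ± 27.0 normalized counts of Cd8a, YFP- TEM cells 371 ± 183 and YFP- naive cells 61.4 ± 21.8. Cd24a had -0.56 (95% interval -1.38 to 0.27, adjusted p = 0.209, limma).

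The order of the 4 groups differed from gene to gene. Dntt and Cd8b1 were highest in YFP- naive cells, with 712 ± 52.7 and 1157 ± 109 normalized counts, followed by YFP- TEM cells with 356 ± 127 and 751 ± 242, YFP+ naive cells with 253 ± 39.99 and 498 ± 78.6, and YFP+ TEM cells with 16.4 ± 14.7 and 239.8 ± 70.6. For both genes the YFP- TEM and YFP+ naive libraries overlapped. Ccr9 had the order YFP+ TEM (2442 ± 1202), YFP- TEM (975 ± 414), YFP- naive (151 ± 14.1) and YFP+ naive (61.4 ± 14.7), and Sox4 fell into a naive level, at 1101 ± 114 and 950.1 ± 65.9 in YFP- and YFP+ cells, and a TEM level of 92.9 ± 29.1 and 80.8 ± 26.5. Per kb of exon, and in YFP- naive cells, the order of the genes was Cd8b1 (780.2 normalized counts per kb), Tox (673), Dntt (310.4), Sox4 (229.7), Cd24a (39.4), Cd8a (16.9), Ccr9 (14.8) and Rag1 (0.281). The exon model of Ccr9 is long, at 10260 bases, which lowers its value on this scale.

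Cd8b1 and Cd8a are neighbours, 35935 bases apart on chromosome 6, and the genes around them were read as well. In naive cells, none of the 10 tested genes within 250 kb was called, and Krcc1, Rmnd5a, Rnf103, Chmp3 and Rpl34-ps1, which had from 2073 to 8803 normalized counts on average in YFP- naive cells, had log2 fold changes from -0.09 to 0.02. Smyd1, Gm1070 and Thnsl2 had under 60 normalized counts in naive cells, with wide intervals. In TEM cells Smyd1, which encodes a muscle methyltransferase, fell by 3.02 (adjusted p = 0.0104, limma) from 15.8 to 0.971 normalized counts, and Krcc1, Rmnd5a, Rnf103, Chmp3 and Rpl34-ps1 had values from -0.03 to 0.13. The ratio of Cd8b1 to Cd8a per kb was 5.64 ± 2.19 in YFP- TEM and 18 ± 12.02 in YFP+ TEM cells.

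**Figure D5:**
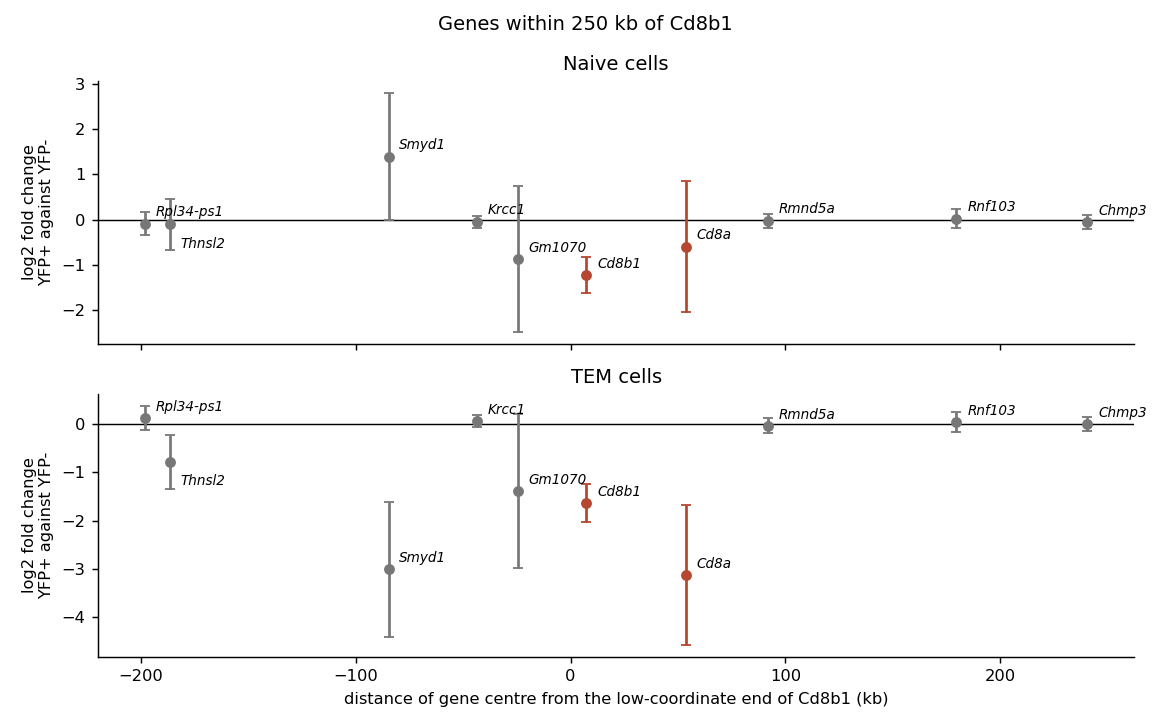
Log2 fold change of YFP+ against YFP- cells with its 95% interval (vertical) for the 10 tested genes within 250 kb of Cd8b1, by distance of the gene's centre from the low-coordinate end of Cd8b1 in kb (horizontal), in naive cells (top) and TEM cells (bottom). The CD8 genes are red, and in naive cells Rmnd5a, Rnf103, Chmp3, Krcc1 and Rpl34-ps1 lay near 0.

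Genes with the most similar levels over the 12 libraries are given as a description, since the libraries fall into 4 groups and those of the same replicate number deviate together. By Pearson's r of log2 values, Dntt was most like Dapk1 (0.958), Cd8b1 (0.941) and Exosc5 (0.938), and Cd8b1 was most like Dntt, Hoxa7 (0.896) and Slc25a35 (0.893). Within groups, after subtraction of the group means, the coefficient of Dntt and Cd8b1 was 0.769. Dapk1 fell in YFP+ TEM cells with a log2 fold change of -3.37, while in naive cells it had -0.23. Cd8a was most like Iglc3 (0.966), Ly6d (0.954) and Fcrla (0.947), of which Ly6d is on the list of plasmacytoid markers, and Iglc3 and Fcrla are genes of B lineage cells. Genes with a pattern close to that of Ccr9 included Il2ra (0.976) and Tmem154 (0.970). Sox4 was most like Acss1, Gm15708 and Adcy6 (0.994 or more), and Tox like Timp2, Twsg1 and Galnt9 (0.980 or more). Cd24a had no close match, with Fcmr (0.772), Elovl6 and Zpbp2 first.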

How the data were processed

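The 12 libraries of total RNA were prepared with a stranded kit, which the authors mapped with DRAGEN (mm10) and counted with Rsubread. The deposited signal consists of normalized counts, in which the authors divided the reads of each library by a DESeq2 size factor. The annotation and strand setting are not given in the sources used here. All 12 sample columns were used, and 0 were left out. Whole reads were recovered from 100% of values (tolerance 0.001). Symbols of 16749 of 17523 genes came from RefSeq on GRCm38.p6, and exon lengths from GENCODE M21.

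Log2(normalized count + 1) was fitted in limma 3.58.1 under R 4.3.3. The model held 4 group means, the replicate number as a block and a variance trend (6 residual degrees of freedom). A gene was tested if 3 or more libraries had 5 or more normalized counts of it, which left 15587. P values were adjusted (Benjamini-Hochberg) over all tested genes, and genes were called at 0.05 or less. Fold changes are on the log2(value + 1) scale, which understates the change of low genes. The scripts were tested on simulated data. Pairing by replicate number was set together with the choice of the genes. Libraries of the same number correlated after removal of group means, with coefficients of 0.306, 0.491 and 0.360 in naive and 0.180, 0.338 and 0.356 in TEM cells. Those of different numbers ranged from -0.351 to 0.0184. Removal of a mean over 3 libraries makes these coefficients depend on each other. The labels do not say that replicates are separate animals, so p values measure the spread between these samples.

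The members, gene lists and tests were chosen with earlier results of these data known. Named are all members, the called genes of each list or else the 2 with the smallest p in naive cells, the 4 called genes with the smallest p in TEM cells, Cd4, Zbtb7b and Cd44, genes within 250 kb of Cd8b1, and the 3 genes with the highest correlation to each tested member (mean of at least 50). Not every gene so chosen is reported here. Itgae, Eomes, Ly6c2, Cd22, S100a8 and S100a9 were named after their values were seen. Alternatives were pseudocounts of 0.1 and 5, no filter, a mean of 10, quantile and TMM normalization, no variance trend, other blocks, fits of 6 libraries, edgeR 4.0.16 and DESeq2 1.42.0 on the recovered reads, and leaving out libraries. DESeq2 with the block without YFP+ naive replicate 2 was added after the data were seen.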

Additional observations from a re-analysis of the deposited data

Results flagged for a closer look

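The YFP difference of 2 genes differed between TEM and naive cells by the interaction test of limma. For Dntt the log2 difference in TEM cells minus that in naive cells was -3.11 (adjusted p = 0.0070), with YFP+ lower in all 3 pairs of each cell type. For Ccr9 it was 2.59 (adjusted p = 0.0128), with YFP+ lower in all 3 naive pairs and higher in all 3 TEM pairs. Beside both stand the plasmacytoid dendritic cell markers, which summed to between 14777 and 26093 normalized counts in YFP- TEM and between 6027 and 6735 in YFP+ TEM cells. Their part in either difference was not tested.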

How the results depend on the processing

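The number of the 7 genes called in naive cells, 0 as reported, was 3 in DESeq2 with the block, 2 with a replicate block within each cell type, 1 in DESeq2 without the block, 2 in DESeq2 with the block but without YFP+ naive replicate 2 (added after the data were seen), and between 0 and 1 when a library or replicate was left out, with 1 without YFP- TEM replicate 3 (Cd8b1, adjusted p = 0.0106). Without the replicate block, limma called 0 of 7 in naive cells, 3 in TEM cells, 2 for the interaction and 6 for TEM against naive cells. In TEM cells the count of 4 became 2 without YFP- TEM replicate 1 or 3 or replicate 1 or 3 of all groups, the lowest of the fits that left out a library, whose highest was 5. For the interaction, the count of 2 became 1 without a variance trend and ranged from 0 without replicate 3, through 1 without replicate 1, to 3 over the fits that left out libraries. For TEM against naive cells, no alternative moved the count of 6 by over 1.5 times.

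Of 777 values of single genes under the alternatives, 689 kept direction and side of the threshold, 31 lost a call, 14 gained one and 43 changed sign. Sign changes occurred only in values of Cd24a, Sox4 and Tox that were not called. With libraries left out, Cd24a ranged from -0.44 to 0.71 in naive cells, from -0.22 to 0.97 in TEM cells, from -0.60 to 0.93 for the interaction and from -0.86 to 0.052 for TEM against naive cells, and was -0.45 in the added DESeq2 fit. Sox4 ranged from -0.40 to 0.0026, from -0.35 to 0.054 and from -0.22 to 0.26 in the first 3, and Tox from -0.26 to 0.21, from -0.45 to 0.075 and from -0.43 to 0.14, with 0.18 in the added DESeq2 fit. Under quantile normalization Cd24a had 0.29 and Sox4 0.33 for the interaction, and Sox4 0.13 in TEM cells. The interaction of Sox4, -0.0024 as reported, was 0.0076 with a pseudocount of 5, 0.0315 with TMM factors, 0.0257 in edgeR, and 0.0214 with the block and 0.0239 without it in DESeq2. The cause was not tested.

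Quantile normalization moved the median of all genes for TEM against naive cells from 0.0393 to -0.162, and the calls from 5828 higher and 4657 lower to 4400 higher and 7229 lower. In TEM cells it moved them from 814 higher and 1055 lower to 1340 and 1145. Depth limits Rag1, which had 18 reads in all, and low genes such as Cd8a in naive cells.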
